A study of Homo sapiens with 60 samples.

Results

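Saposhnikoviae Radix, a root used in East Asian herbal medicine, was refluxed in hot water for 3 h, and the extract was tested on A549 cells, a human lung adenocarcinoma line, for 24 h. The data described here are the 3 libraries of cells given 500 µg/mL set against the 3 given 20 µg/mL of the same extract, with the 3 given 100 µg/mL as the step between, all chosen by the extract and dose of their labels. They are 9 of the 60 samples of the series, and no vehicle library enters the comparison. The 9 libraries of Menthae Herba, the other single herb, at the same doses and for the same 24 h, shared the statistical fit and are set beside the extract further on. The labels print these doses in µg/mL, while the description of the series states that extracts with a 20% inhibitory concentration below the top dose were given at that concentration and its dilutions, so the true doses may be lower. Whether the 3 libraries of a dose were grown as separate cultures is not in the labels, and the p-values therefore rest on a spread between samples that may be technical. A549 is 1 cell line, and no other cells are analysed here.

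The aryl hydrocarbon receptor (AhR) is a ligand-activated transcription factor that pairs with ARNT and switches on genes of xenobiotic metabolism. Its best-known targets are CYP1A1 and CYP1B1, which oxidise foreign compounds and steroids, and the feedback inhibitors AHRR and TIPARP. Bone morphogenetic proteins (BMPs) bind paired receptors that phosphorylate SMAD1, SMAD5 and SMAD9, and the ID genes are among the most direct targets of these SMADs. ID proteins lack a DNA-binding region and hold basic helix-loop-helix factors off DNA, which keeps cells from differentiating.

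The 9 libraries held 18330592 to 30893738 counts, and the shallowest was replicate 2 at 500. The 10 markers of A549 identity, aldehyde dehydrogenases, aldo-keto reductases and keratins among them, summed to 18300 to 19200 CPM (counts scaled to the library total) at 500 and 17900 to 19100 CPM at 20, with none of the 10 under 1 CPM. The 8 fibroblast markers summed to 39.8 to 42.3 CPM at 500 and 38.7 to 42.7 CPM at 20, with DCN, FAP and COL1A2 at 0 in both. The 8 endothelial markers summed to at most 0.569 CPM at 500 and 0.88 CPM at 20. The 8 leukocyte markers summed to 12.2 to 13 CPM at 500 and 10.9 to 13.7 CPM at 20, with 5 of the 8 under 1 CPM. Of the leukocyte markers, PTPRC, CD3E and FCGR3A were at 0 at both doses, while CD14, CD68 and ITGAM were not under 1 CPM at either. Mitochondrially encoded genes took 11.2% ± 0.463 of the counts at 500 and 11.8% ± 0.809 at 20 (SD, n = 3 each), with p = 0.3 in a two-sided exact permutation test, whose smallest possible p is 0.1. The last number of the library name was 4 in every library at 500, 5 at 100 and 6 at 20, so dose and place in this numbering cannot be told apart.

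At 500 against 20 a small set of genes changed, by modest amounts. CYP1B1 and TIPARP rose, together with HMOX1, ROR1 and VIPR1. All 4 ID genes fell, and so did ATOH8, BMP6, STC1, the nuclear receptors NR4A2 and NR4A3 and the cytokine gene IL11. Of 16614 genes tested with edgeR's quasi-likelihood test, 34 passed a Benjamini-Hochberg adjusted p of 0.05, which is 0.205% of the genes. The 5 that rose made up 0.0301% and the 29 that fell 0.175%. Only VIPR1 and ZNF20 differed by more than a factor of 2 in this fit. The number of genes at an unadjusted p under 0.05 was 1147. In all 34 the 3 libraries at 500 lay on one side of the 3 at 20, as they did in 2169 of all genes tested, or 13.1%. In bulk RNA, a lower level in every cell and fewer cells that express a gene cannot be told apart.

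The number of genes called depended on single libraries. It was 9, 15 and 21 without replicate 1, 2 or 3 at 500, and 31, 5 and 10 without replicate 1, 2 or 3 at 20. CYP1B1, TIPARP, ID2, ID3 and DIO2 were called in each of these 6 fits, and they were the only 5 of the 34 that kept their call without replicate 2 at 20. In a fit over 57 libraries, which takes its spread from more extracts, 14 genes passed, and 12 of the 34 were among them: CYP1B1, TIPARP, VIPR1, ID2, ID3, ID4, ATOH8, BMP6, NR4A3, DIO2, NPTX1 and TGM2. ID1 was not among them.

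**Figure D1:**
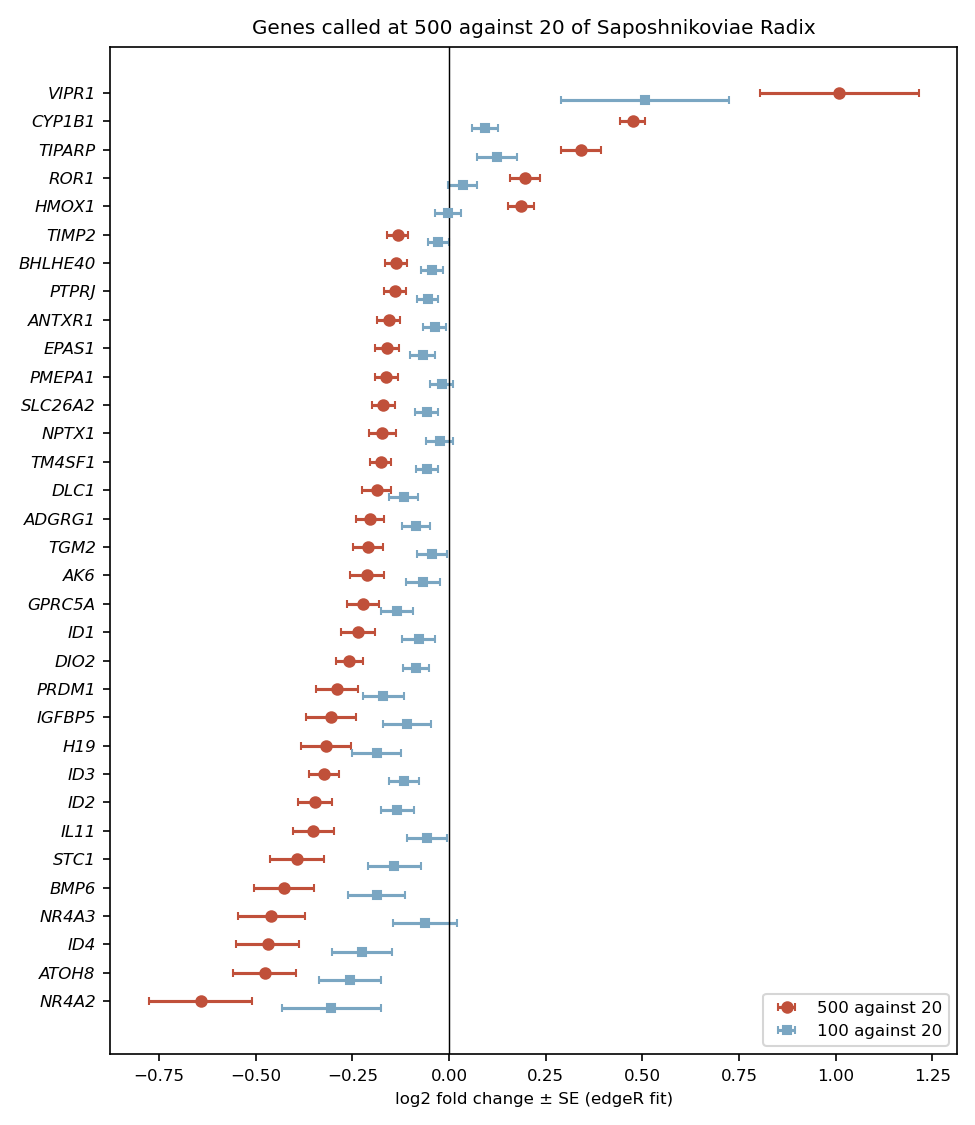
Log2 fold change with its standard error for 33 of the 34 genes called at 500 against 20 of Saposhnikoviae Radix (red circles), with the change at 100 against 20 beside it (blue squares). ZNF20 is left out because its libraries at 500 hold almost no counts. Every change at 500 other than that of VIPR1 is smaller than a doubling or halving, and most blue squares lie between 0 and the red circle.

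The promoter letters of TIPARP and CYP1A1 are shown because both genes belong to the AhR response and their windows hold the core letters that the AhR and ARNT pair binds. They are the 250 bases before the annotated start, from RefSeq on GRCh38.p14, read along the gene's strand, with each GCGTG (or CACGC, its reverse complement) in capitals. The TIPARP window, for the first of 3 annotated starts, is chr3:156674340-156674589 on the plus strand and holds 2 matches, 208 and 142 bases before the start. It is printed for these matches, and the windows of the other starts, 2 and 3, hold 0. The CYP1A1 window is chr15:74725529-74725778 on the minus strand and holds 1 match, 57 bases before the start. Of 35116 promoter windows of the same length, 32.2% hold these letters on either strand, so a match is a description and not a shown binding site. The windows of the 2 starts of AHRR, which did not pass, hold 1 and 2 matches. The same letters also occur, unmarked, in the windows of ID1, ID2, ID3 and NR4A3 printed further on, which are genes that fell. CYP1B1 has no window among those used.
TIPARP: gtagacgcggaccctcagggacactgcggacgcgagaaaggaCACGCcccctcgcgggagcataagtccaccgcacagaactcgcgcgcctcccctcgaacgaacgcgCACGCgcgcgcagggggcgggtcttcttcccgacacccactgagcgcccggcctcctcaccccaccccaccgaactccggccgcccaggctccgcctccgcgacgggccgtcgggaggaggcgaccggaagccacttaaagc
CYP1A1: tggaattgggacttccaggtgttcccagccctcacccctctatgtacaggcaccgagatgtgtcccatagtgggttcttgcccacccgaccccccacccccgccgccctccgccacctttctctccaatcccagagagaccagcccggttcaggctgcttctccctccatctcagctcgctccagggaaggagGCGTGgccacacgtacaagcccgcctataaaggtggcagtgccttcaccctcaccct

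CYP1B1 (chr2:38066973-38109902, minus strand, GRCh38), a cytochrome P450 that hydroxylates oestrogens and polycyclic hydrocarbons, changed most securely. It stood at 102, 97.5 and 94.2 CPM in the libraries at 20, at 104, 103 and 104 CPM at 100, and at 142, 135 and 135 CPM at 500. The 3 libraries at 500 lay above the other 6. The change was 0.48 ± 0.0323 on the log2 scale (SE; adjusted p = 4.99e-09, edgeR), a 1.39-fold rise.

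TIPARP (chr3:156673235-156706770, plus strand) encodes an ADP-ribosyltransferase that is induced by AhR and damps it. It stood at 43.0, 35.7 and 40.5 CPM at 20, at 41.9, 44.3 and 42.8 CPM at 100, and at 51.7, 51.5 and 49.7 CPM at 500. The groups at 20 and 100 overlapped and the group at 500 stood above both. Its log2 change at 500 against 20 was 0.34 ± 0.0516 (adjusted p = 0.00279, edgeR).

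CYP1A1, the most inducible AhR target in many cells, was near the bottom of the measurable range. It had 1.21, 1.44 and 1.19 CPM at 20, 2.16, 1.40 and 1.79 CPM at 100, and 2.85, 1.80 and 2.38 CPM at 500. The libraries at 500 lay above those at 20 without overlap, but the gene did not pass (log2 change 0.89 ± 0.204, adjusted p = 0.0773, edgeR). In a fit over 57 libraries of the series it did (adjusted p = 0.026). CYP1A1 passed in 5 of the 23 alternatives run, that fit among them. It passed in 0 of the 9 fits with 1 library left out (adjusted p up to 0.5085, edgeR). AHRR, the AhR repressor, averaged 6.30 ± 0.209 CPM at 500 and 5.19 ± 0.631 CPM at 20 (SD, n = 3 each) and did not pass (log2 change 0.27, adjusted p = 0.631, edgeR).

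Of the 9 AhR targets tested, 2 rose (0.0301% of all genes did) and none fell, with a median log2 change of 0.15 beside -6e-04 over all genes tested. This list too was chosen with earlier results of these data known, and CYP1B1 was given with the comparison, so the counts are a description. All 9 had a positive value, as did 8263 of all 16614 genes tested. The other 5 were small: ALDH3A1, an aldehyde dehydrogenase, had 0.15 (adjusted p = 0.225, edgeR) and NQO1, a quinone reductase, 0.05 (adjusted p = 0.764). None of 7 AhR pathway components, AHR and ARNT among them, passed, with AHR itself at 61.7 CPM at 500 and 65.2 CPM at 20.

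HMOX1, haem oxygenase, is a target of the oxidative stress factor NRF2. It had 152, 146 and 150 CPM at 20, 152, 147 and 144 CPM at 100, and 174, 174 and 167 CPM at 500. It thus stood out at 500 alone, with a log2 change of 0.19 ± 0.0331 against 20 (adjusted p = 0.0139, edgeR). Its adjusted p was 0.108 or 0.0513 without replicate 1 or 2 at 500 and 0.105 without replicate 2 at 20. It was the only 1 of 28 NRF2 targets to pass (0.0301% of all genes rose). Of the 28, 26 had a value above 0, as did 8263 of all 16614 genes tested. The median of the 28 was 0.04. GCLC and GCLM, which make glutathione's precursor, had 0.10 and 0.09 without passing (adjusted p = 0.145 and 0.506).

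ROR1, a receptor tyrosine kinase-like surface protein, had 48.0, 48.0 and 48.5 CPM at 500, against 42.3, 40.9 and 41.6 CPM at 20 (log2 change 0.20 ± 0.0376, adjusted p = 0.02, edgeR). Without any 1 of the 6 libraries other than replicate 1 at 20, its adjusted p was 0.0528 to 0.136. VIPR1, a receptor for vasoactive intestinal peptide, was much lower, with 1.88, 1.26 and 1.85 CPM at 500 against 0.781, 0.840 and 0.877 CPM at 20. Its log2 change of 1.01 ± 0.206 (adjusted p = 0.0331) rests on few counts. Its adjusted p was 0.13 to 0.253 without replicate 1 or 3 at 500 or any replicate at 20, and 0.0163 without replicate 2 at 500.

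**Figure D2:**
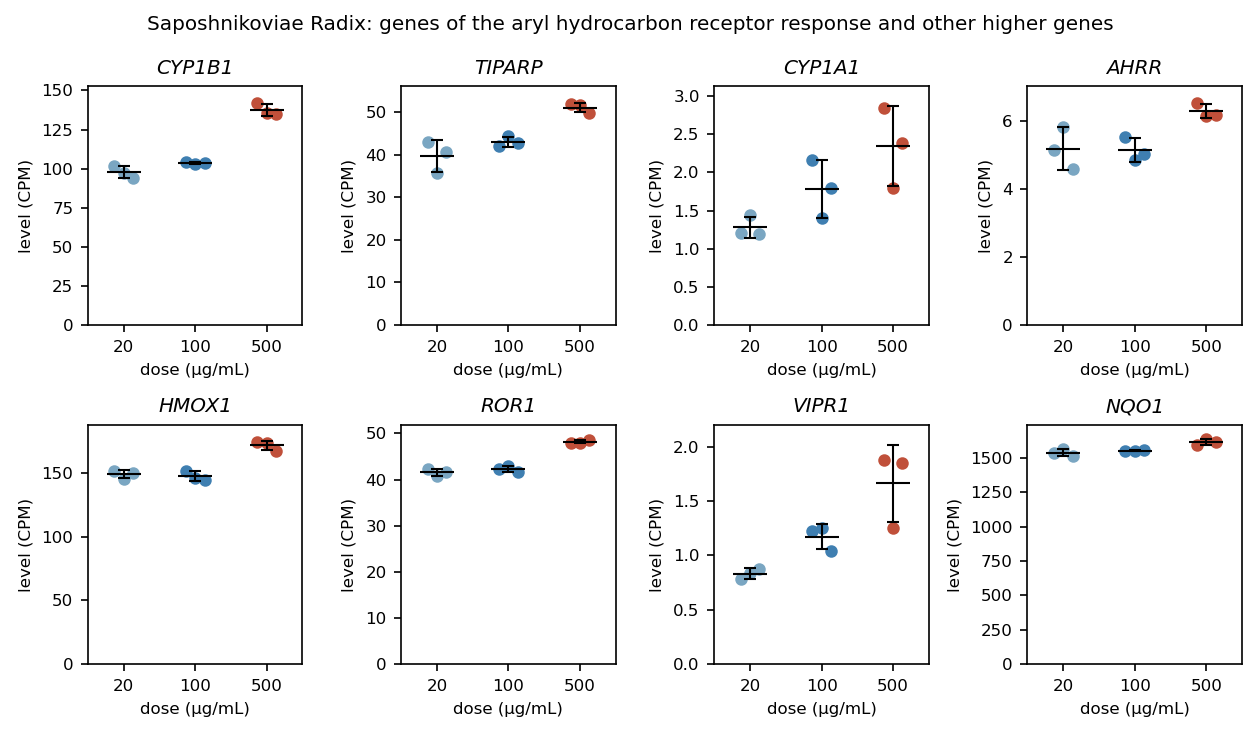
Levels in CPM (vertical axes, from 0) of 8 genes in the 9 libraries of Saposhnikoviae Radix by dose; points are libraries and the bar with its error is the mean ± SD of 3. CYP1B1, TIPARP and HMOX1 stand higher at 500 than at 20 and 100, while NQO1 changes little. VIPR1 and CYP1A1 lie below 3 CPM.

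The same windows of the 4 ID genes and of NR4A3 are shown because these genes fell together. In the ID3 and NR4A3 windows the letters TGACG or their reverse complement CGTCA, the cAMP response element's core, are in capitals; this motif was added after the values were seen. NR4A3 (chr9:99821635-99821884, plus strand) holds 4 matches, 109, 91, 83 and 25 bases before its start. ID3 (chr1:23559502-23559751, minus strand) holds 1 match, 150 bases before it. The windows of ID1 (chr20:31605039-31605288), ID2 (chr2:8681806-8682055) and ID4 (chr6:19837120-19837369), all on the plus strand, hold none, and nor do those of ATOH8 and BMP6. Of all windows 21.2% hold these letters. The palindrome GGCGCC, known from BMP-responsive promoters, occurs in none of the windows of ID1, ID2, ID3, ID4, ATOH8 and BMP6. It occurs in 16.4% of all windows. Bases outside the windows were not searched, so a window without a match does not show that a gene lacks such letters farther away.
ID1: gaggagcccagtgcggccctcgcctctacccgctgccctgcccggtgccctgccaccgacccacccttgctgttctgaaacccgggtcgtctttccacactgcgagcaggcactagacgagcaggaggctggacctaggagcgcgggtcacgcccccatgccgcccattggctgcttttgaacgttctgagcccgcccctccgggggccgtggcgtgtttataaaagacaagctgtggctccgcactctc
ID2: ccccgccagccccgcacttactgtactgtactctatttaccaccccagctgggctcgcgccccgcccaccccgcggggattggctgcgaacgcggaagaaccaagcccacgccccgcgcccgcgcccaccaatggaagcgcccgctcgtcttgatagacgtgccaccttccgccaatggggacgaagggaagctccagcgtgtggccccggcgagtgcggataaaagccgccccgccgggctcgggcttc
ID3: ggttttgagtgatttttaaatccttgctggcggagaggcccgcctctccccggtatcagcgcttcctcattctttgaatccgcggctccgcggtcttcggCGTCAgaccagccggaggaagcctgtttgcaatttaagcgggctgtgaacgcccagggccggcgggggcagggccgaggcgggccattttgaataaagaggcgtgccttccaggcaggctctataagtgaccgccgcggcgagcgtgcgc
ID4: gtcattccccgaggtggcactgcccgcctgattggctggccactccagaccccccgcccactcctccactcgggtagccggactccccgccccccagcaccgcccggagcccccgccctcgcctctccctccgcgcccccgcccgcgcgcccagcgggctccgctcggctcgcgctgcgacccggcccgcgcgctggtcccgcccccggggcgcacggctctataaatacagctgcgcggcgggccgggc
NR4A3: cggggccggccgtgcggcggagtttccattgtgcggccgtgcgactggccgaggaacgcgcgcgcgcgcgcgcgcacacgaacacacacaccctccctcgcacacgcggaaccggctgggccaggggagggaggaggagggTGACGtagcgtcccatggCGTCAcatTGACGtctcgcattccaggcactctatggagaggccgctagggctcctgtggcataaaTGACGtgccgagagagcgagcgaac

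Among the BMP ligands, BMP6 (chr6:7726797-7881422, plus strand) fell. It had 14.9, 16.1 and 16.1 CPM at 20, 14.4, 13.2 and 13.4 CPM at 100, and 10.2, 12.98 and 12.7 CPM at 500. The 3 doses did not overlap, and replicate 1 at 500 was the lowest of all. The log2 change at 500 against 20 was -0.43 ± 0.0768 (adjusted p = 0.0139, edgeR), and the adjusted p was 0.178 without that library, and 0.0909 or 0.0984 without replicate 2 or 3 at 20. None of the other 8 ligands tested passed, with log2 changes from -0.65 for BMP2 to 0.84 for BMP7. BMP4 averaged 5.42 ± 0.868 CPM at 500 and 5.08 ± 0.0936 CPM at 20. None of 15 receptors and SMADs passed, with a median of -0.01. BMPR2, the common type II receptor of BMPs, had a log2 change of -0.05 with a 95% interval of -0.12 to 0.03. None of 11 BMP antagonists passed. The most negative of them was noggin (NOG), at 0.287 CPM at 500 and 0.622 CPM at 20 (adjusted p = 0.377).

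Of the 21 BMP and SMAD1/5 targets tested, 6 fell (0.175% of all genes did) and none rose. A negative value was seen in 16 of the 21 and in 8349 of all 16614 genes tested. The list was chosen with earlier results of these data known, and ID2 and ATOH8 were given with the comparison. The counts of these targets are therefore a description. The median log2 change of the 21 was -0.15. The 6 that fell were ATOH8, ID4, STC1, ID2, ID3 and ID1.

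ID2 (chr2:8678845-8684453, plus strand) had 107, 121 and 114 CPM at 20, 101, 106 and 101 CPM at 100, and 87.8, 91.5 and 92.6 CPM at 500. ID3 (chr1:23557918-23559794, minus strand) had 154, 173 and 159 CPM at 20, 150, 147 and 148 CPM at 100, and 130, 128 and 134 CPM at 500. In both genes all 9 libraries followed the order of the doses without overlap. At 500 against 20 the log2 change of ID2 was -0.35 ± 0.0437 (adjusted p = 2.60e-04, edgeR). That of ID3 was -0.32 ± 0.0387 (adjusted p = 1.62e-04).

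ID4 (chr6:19837386-19840684, plus strand) had 13.8, 13.6 and 12.9 CPM at 20, 11.2, 11.7 and 11.3 CPM at 100, and 9.68, 9.76 and 10.0 CPM at 500, again with no overlap between doses. ID1 (chr20:31605283-31606515, plus strand) had 177, 195 and 195 CPM at 20, 165, 182 and 186 CPM at 100, and 152, 164 and 172 CPM at 500. Its neighbouring doses overlapped while 500 and 20 did not. The log2 changes at 500 against 20 were -0.47 ± 0.0805 for ID4 (adjusted p = 0.0109) and -0.24 ± 0.0443 for ID1 (adjusted p = 0.0167, edgeR). ID4 lost its call without replicate 1 at 500 (adjusted p = 0.073) or replicate 2 at 20 (0.0598). ID1 lost it without replicate 1 (0.25) or 2 (0.0743) at 500, and without replicate 2 (0.134) or 3 (0.18) at 20.

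ATOH8 (chr2:85751344-85788066, plus strand) encodes a basic helix-loop-helix factor known as a BMP target in endothelial cells. It had 15.8, 19.9 and 18.7 CPM at 20, 14.5, 16.3 and 14.4 CPM at 100, and 12.9, 13.7 and 13.1 CPM at 500. The libraries at 500 lay below the other 6. The log2 change was -0.48 ± 0.0817 (adjusted p = 0.0109, edgeR), and the call was lost without replicate 1 at 500 (0.0842) or replicate 2 (0.0983) or 3 (0.0737) at 20. STC1, the hormone stanniocalcin, had 14.9, 13.4 and 15.6 CPM at 500 against 18.9, 19.6 and 18.7 CPM at 20 (log2 change -0.39 ± 0.0703, adjusted p = 0.0139). Its adjusted p was 0.0585 to 0.0909 without replicate 1 or 2 at 500 or replicate 2 or 3 at 20.

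The feedback inhibitors of the same pathway did not pass. SMAD6 averaged 76.0 ± 0.952 CPM at 500 and 80.8 ± 0.809 CPM at 20 (SD, n = 3 each; log2 change -0.10, adjusted p = 0.643, edgeR). SMAD7 had -0.09 with a 95% interval of -0.19 to 0.02, and the pseudoreceptor BAMBI -0.20 with an interval of -0.36 to -0.04 (adjusted p = 0.566). SMAD9 had -0.24 at about 1 CPM (adjusted p = 0.899). The number of targets that fell was 2, 4 and 6 without replicate 1, 2 or 3 at 500, and 6, 2 and 3 without replicate 1, 2 or 3 at 20.

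**Figure D3:**
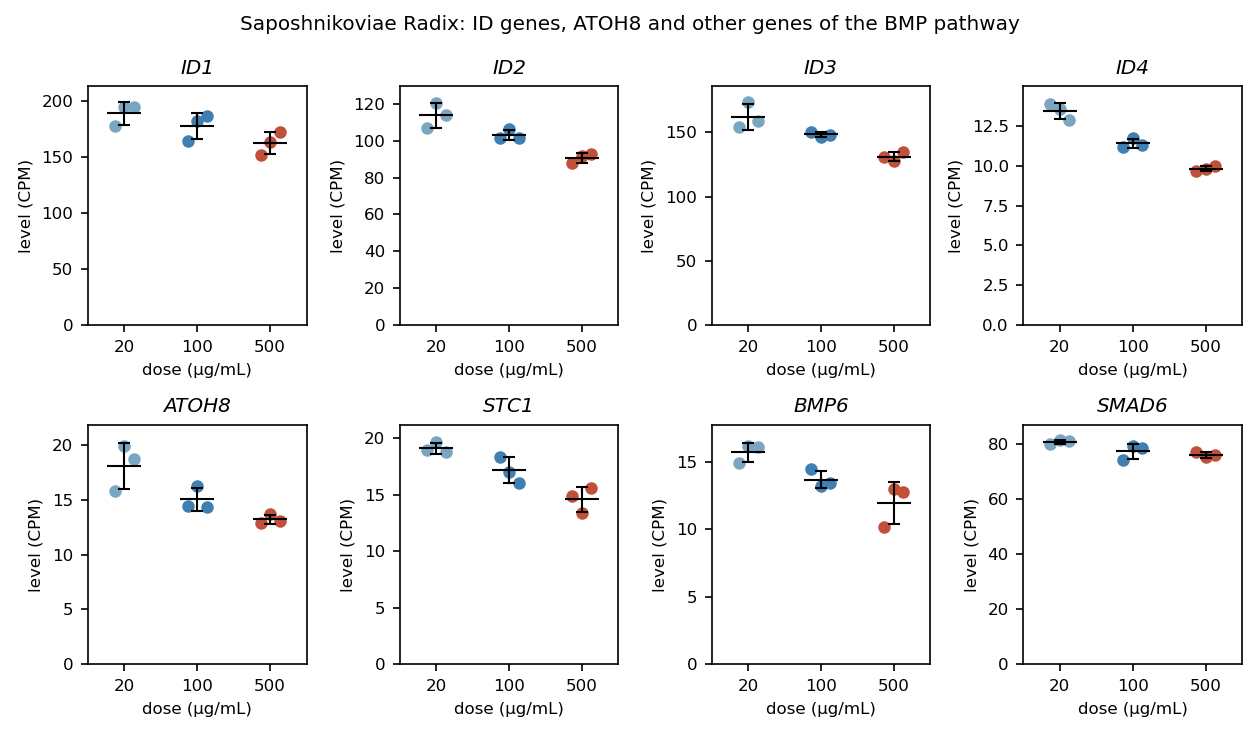
Levels in CPM (vertical axes, from 0) of the 4 ID genes, ATOH8, STC1, BMP6 and SMAD6 in the 9 libraries of Saposhnikoviae Radix by dose; points are libraries and the bar with its error is the mean ± SD of 3. In ID2, ID3, ID4, STC1 and BMP6 the 3 doses do not overlap, and SMAD6 changes little.

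**Figure D4:**
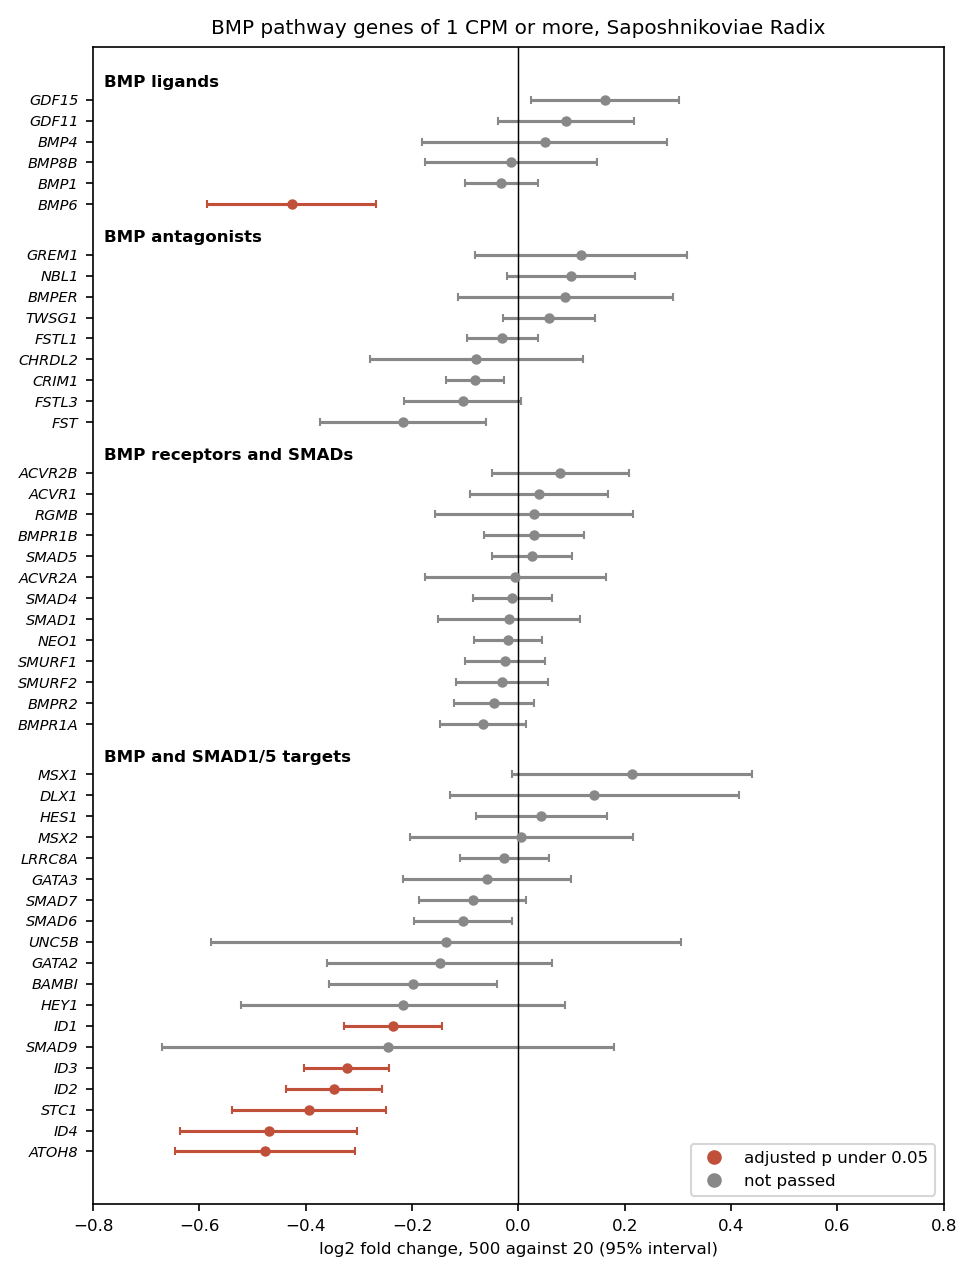
Log2 fold change at 500 against 20 of Saposhnikoviae Radix with its 95% interval for BMP pathway genes of 1 CPM or more, grouped by role. Red marks the 7 genes with an adjusted p under 0.05, which are 1 ligand and 6 targets; no antagonist, receptor or SMAD is red.

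Of 25 genes of the TGF-beta response and mesenchymal state, 1 fell (0.175% of all genes did). It was PMEPA1, which is induced by TGF-beta and restrains it, at 238, 226 and 238 CPM at 500 against 261, 259 and 257 CPM at 20 (log2 change -0.16 ± 0.0298, adjusted p = 0.0157, edgeR). Its adjusted p was 0.128 without replicate 2 at 500, and 0.0737, 0.0711 and 0.0768 without replicate 1, 2 or 3 at 20.

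The NR4A genes encode orphan nuclear receptors that are switched on quickly by many signals. NR4A3 (chr9:99821855-99866891, plus strand) had 8.86, 8.72 and 8.45 CPM at 20, 7.85, 8.44 and 8.49 CPM at 100, and 6.08, 6.55 and 6.58 CPM at 500. The libraries at 500 were the lowest, and 1 at 100 overlapped those at 20. Its log2 change at 500 against 20 was -0.46 ± 0.0857 (adjusted p = 0.0167, edgeR).

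NR4A2 had 3.43, 2.89 and 4.20 CPM at 500 against 4.53, 5.56 and 6.42 CPM at 20 (log2 change -0.64 ± 0.134, adjusted p = 0.0391). NR4A1 had 28.0, 28.5 and 26.9 CPM at 500 against 29.6, 34.8 and 35.1 CPM at 20, and just missed the threshold (-0.27 ± 0.0626, adjusted p = 0.0773). NR4A3 lost its call without any 1 of the 6 libraries at 500 and 20 (adjusted p 0.0525 to 0.178), and NR4A2 without replicate 1 (0.252) or 2 (0.177) at 500 or replicate 2 (0.136) or 3 (0.306) at 20, or replicate 3 at 100 (0.0543). With NR4A2 and NR4A3, 2 of 19 genes in the list of NR4A receptors and immediate early genes fell (0.175% of all genes did). FOS, JUN and EGR1 did not pass, at log2 changes of -0.06, 0.05 and -0.07.

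Outside these lists, DIO2, IL11, IGFBP5, H19, PRDM1 and GPRC5A also fell. DIO2, the deiodinase that activates thyroid hormone, had 82.6, 85.7 and 83.7 CPM at 20, 74.3, 82.0 and 79.8 CPM at 100, and 71.2, 73.5 and 69.0 CPM at 500. All 9 libraries followed the dose order. Its log2 change at 500 against 20 was -0.26 ± 0.0346 (adjusted p = 5.57e-04, edgeR).

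IL11, a cytokine of the interleukin-6 family, had 24.3, 23.0 and 20.2 CPM at 500 against 27.4, 30.3 and 27.3 CPM at 20 (-0.35 ± 0.0533, adjusted p = 0.00279). It lost its call without replicate 2 at 20 (0.0581). IGFBP5, which binds insulin-like growth factors, averaged 17.4 ± 0.486 CPM at 500 and 21.3 ± 1.46 CPM at 20 (-0.31, adjusted p = 0.0427). H19, an imprinted long non-coding RNA, averaged 111 ± 10.5 CPM at 500 and 136 ± 13.8 CPM at 20 (-0.32, adjusted p = 0.0324). The spread of H19 within a dose was wide, yet 500 and 20 did not overlap.

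PRDM1, a transcriptional repressor, averaged 14.3 ± 0.300 CPM at 500 and 17.3 ± 0.678 CPM at 20 (-0.29, adjusted p = 0.0167). GPRC5A, an orphan receptor abundant in lung epithelium, averaged 252 ± 9.20 CPM at 500 and 290.2 ± 14.1 CPM at 20 (-0.22, adjusted p = 0.0167). IGFBP5, H19, PRDM1 and GPRC5A each lost their call without replicate 1 or 2 at 500 or replicate 2 or 3 at 20, with adjusted p between 0.0525 and 0.35. IGFBP5 (0.114) and PRDM1 (0.0912) also lost it without replicate 3 at 500, and IGFBP5 (0.0651) and H19 (0.0515) without replicate 3 at 100.

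VIPR1, ZNF20 and 12 further lower genes fell outside the naming rule and are named after their values were seen. VIPR1 and ZNF20 were under 5 CPM at both doses. The 12, TGM2, ADGRG1, DLC1, TM4SF1, NPTX1, SLC26A2, EPAS1, ANTXR1, PTPRJ, BHLHE40, TIMP2 and AK6, had log2 changes of -0.21 to -0.13. TGM2, a transglutaminase that cross-links proteins, had 530.1, 578 and 570.1 CPM at 500 against 606, 667 and 643 CPM at 20. EPAS1, the hypoxia-inducible factor HIF-2 alpha, had 239.7, 237 and 238 CPM at 500 against 257, 268 and 264 CPM at 20. These are narrow differences between groups that did not overlap, and in each of the 12 leaving out replicate 2 at 20 ended the call.

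ZNF20 and AK6 overlap other genes on the same strand, and whether reads were shared was not tested. ZNF20 had 0, 0 and 1 counts at 500 and 17, 14 and 7 counts at 20, while the readthrough transcript ZNF625-ZNF20, which contains it, had 14, 12 and 12 counts at 500 and 0, 5 and 4 counts at 20. The sum of both was 0.523 ± 0.114 CPM at 500 and 0.621 ± 0.165 CPM at 20 (SD, n = 3 each), so the counts of ZNF20 were lower at 500 where those of its overlapping partner were higher. AK6, a nuclear adenylate kinase, overlaps TAF9, which averaged 67.2 ± 1.74 CPM at 500 and 67.8 ± 1.31 CPM at 20. AK6 averaged 22.2 ± 0.812 CPM at 500 and 25.3 ± 0.474 CPM at 20, and the sum with TAF9 89.5 ± 2.35 CPM at 500 and 93.1 ± 0.838 CPM at 20.

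The dose of 100 is the step between. At 100 against 20 no gene passed (0% of 16614; 741 at an unadjusted p under 0.05, edgeR), and at 500 against 100 CYP1B1 alone did, which is 0.00602% (log2 change 0.38 ± 0.032, adjusted p = 3.56e-07; 1235 genes at an unadjusted p under 0.05). By DESeq2 the counts were 2 at 100 against 20 and 52 at 500 against 100. With 1 library left out, 100 against 20 gave 1 gene without replicate 2 at 100 and 2 without replicate 1 at 20. At 500 against 100 there were 3 without replicate 1 at 500, 2 without replicate 1 or 2 at 100, and 3 or 6 without replicate 1 or 2 at 20. Of the 34 genes called at 500 against 20, 33 had their mean at 100 between the other 2 means, and HMOX1 was the exception. Among all genes tested, 33.4% had it between. The 34 were chosen for means at 500 and 20 that lie apart, and the comparisons share libraries, so the count is a description. The change reached at 100 was a median of 19.5% of the full log2 change in the 5 genes that rose and 36% in the 29 that fell. It was 19.5% for CYP1B1, 38.6% for ID2, 36% for ID3, 47.8% for ID4 and 53.8% for ATOH8. In 14 of the 34 all 9 libraries followed the dose order without overlap, as they did in 44 of all genes tested (0.265%), though the 34 had been chosen for the separation of 500 and 20.

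Most of these genes moved the same way with Menthae Herba, whose libraries are separate. At 500 against 20 of Menthae Herba, 951 genes passed (5.72%). Among the 34 genes called for Saposhnikoviae Radix, 30 were called for Menthae Herba in the same direction and none in the opposite one. These 30 are 88.2% of the 34 and 3.15% of the 951. The 4 others were DLC1, AK6, PRDM1 and ZNF20. The last number of the Menthae Herba library names also follows the dose, so the same limit holds there.

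The size of the change was tested between the herbs, as the change in Saposhnikoviae Radix minus that in Menthae Herba. This difference passed for 119 genes (0.716%, edgeR), 10 of the 34 among them. The number was 75, 73 and 50 without replicate 1, 2 or 3 at 500 of Saposhnikoviae Radix, and 48 without replicate 1 at 20. No Menthae Herba library was left out in turn. CYP1B1 rose by 0.48 with Saposhnikoviae Radix and 1.18 with Menthae Herba (difference -0.70 ± 0.0452, adjusted p = 1.52e-09). TIPARP rose by 0.34 with Saposhnikoviae Radix and 1.32 with Menthae Herba (difference -0.98 ± 0.0714, adjusted p = 1.04e-08). At 500, CYP1B1 averaged 137 ± 3.73 CPM with Saposhnikoviae Radix and 222 ± 5.34 CPM with Menthae Herba, while at 20 it averaged 97.8 ± 3.76 CPM with Saposhnikoviae Radix and 97.1 ± 2.49 CPM with Menthae Herba. Both genes thus rose less with Saposhnikoviae Radix at the same labelled dose.

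For the ID genes, ATOH8 and BMP6 no difference between the herbs passed. ATOH8 fell by 0.48 with Saposhnikoviae Radix and by 0.41 with Menthae Herba (difference -0.07, 95% interval -0.31 to 0.17). BMP6 fell by 0.43 with Saposhnikoviae Radix and by 0.50 with Menthae Herba (difference 0.08, interval -0.16 to 0.31). ID2 fell by 0.35 with Saposhnikoviae Radix and by 0.53 with Menthae Herba, with an interval of 0.06 to 0.32 for the difference that lies above 0 before adjustment (adjusted p = 0.235). ID4 had the widest such gap among them, at -0.47 with Saposhnikoviae Radix and -0.83 with Menthae Herba (difference 0.36, interval 0.11 to 0.61, adjusted p = 0.227). A difference that misses the threshold does not show that the herbs act alike on these genes.

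**Figure D5:**
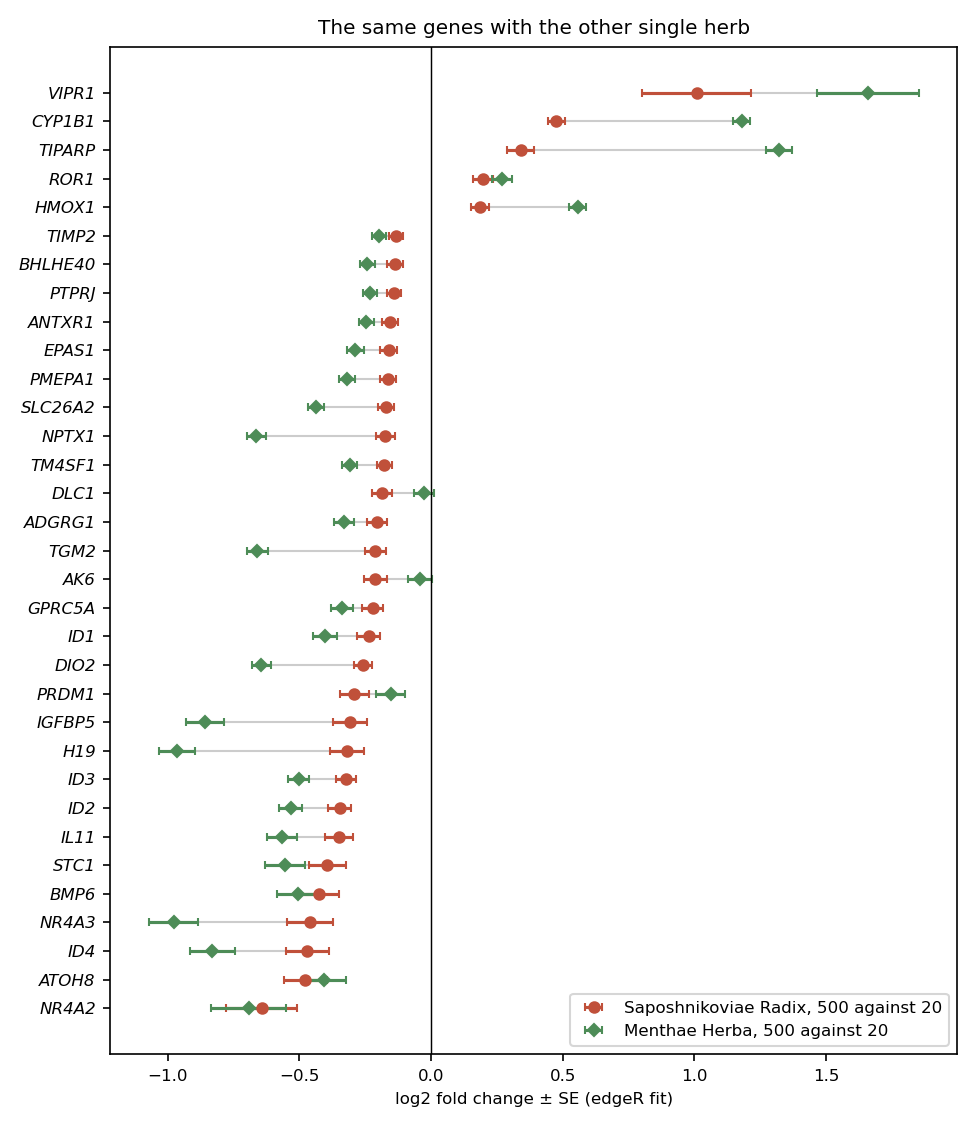
Log2 fold change at 500 against 20, with its standard error, for the 33 called genes other than ZNF20, in Saposhnikoviae Radix (red circles) and Menthae Herba (green diamonds). Apart from DLC1, AK6, PRDM1 and ATOH8, the diamonds lie farther from 0 than the circles, and none lies on the other side of 0.

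Many pathways showed no gene that passed at 500 against 20 of Saposhnikoviae Radix, where 0.205% of all genes tested did. With so small a share, a list of this size without a gene that passed says little about its pathway. The same holds for the lists above in which none passed. No gene passed among 24 cholesterol synthesis genes (median log2 change -0.02), 28 genes of the integrated stress response (0.02), 20 unfolded protein response genes (-0.01), 20 p53 targets (0.03), 22 hypoxia and glycolysis genes (0.00), 18 interferon genes (0.04) or 26 mitosis genes (-0.03). MKI67, a marker of dividing cells, averaged 760.4 ± 1.64 CPM at 500 and 764 ± 17.8 CPM at 20, and CDKN1A, the p53 target p21, 80.8 ± 1.07 CPM at 500 and 81.8 ± 1.16 CPM at 20. Flow-responsive KLF2 and the Notch target HES4 had log2 changes of 0.08 and -0.14 without passing.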

How the data were processed

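A549 cells were profiled by directional RNA sequencing. Per the labels' protocols, 1 µg of RNA with an integrity number over 7 went into MGIEasy libraries read as 100 bp pairs. Per the submitters' processing notes, FastQC 0.11.9, Trim Galore 0.6.5, STAR 2.7.3a and RSEM 1.3.3 were used on GRCh38. The authors deposited RSEM expected counts per gene; 10.5% of the values were not whole and were rounded. The annotation release and the strand setting of the counting are not given in the sources used here, so reads of overlapping genes may be split or pooled. Positions are those of GENCODE on GRCh38.

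The main test was edgeR 4.0.16 (R 4.3.3, limma 3.58.1): glmQLFit and glmQLFTest with TMM scaling, filterByExpr by group and Benjamini-Hochberg adjustment over all 16614 genes tested, with 0.05 as the threshold. The fit held 18 libraries in 6 groups, the 2 single herbs at 3 doses. A fit of 57 libraries in 19 groups was an alternative. The fit of 18 was made the main one with earlier results of these data known. The median dispersion was 0.00129 in the fit of 18 and 0.00398 in that of 57. Levels are CPM of the library total, without TMM. DESeq2 1.42.0 was an alternative. The scripts were tested on simulated data.

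Genes were named by a rule: called, a mean of 5 CPM or more at 500 or 20, no overlap of the libraries, then the 15 highest and 15 lowest changes, up to 3 called members of each of 35 lists, and a fixed panel. Members and lists were chosen with earlier results of these data known. The labels do not say whether replicate numbers pair the libraries, and the main fit held no replicate block. Library totals limit precision for genes near 1 CPM. Library pairs within a dose differed by more than sampling noise (chi-square per degree of freedom 1.88 to 5.09), so none was a copy.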

Additional observations from a re-analysis of the deposited data

Results flagged for a closer look

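The change at 500 against 20 differed between Saposhnikoviae Radix and Menthae Herba for 13 of the named genes, each by a test of the difference in the edgeR fit. Over all genes tested the difference passed for 119, or 0.716%. Many of the named genes were chosen for their call at 500 against 20 of Saposhnikoviae Radix, whose libraries enter this difference. The count of 13 is therefore a description. The values below are the log2 change in Saposhnikoviae Radix minus that in Menthae Herba. On the AhR side the differences were -0.70 for CYP1B1, -0.98 for TIPARP, -0.93 for AHRR (adjusted p = 0.00254) and -1.63 for CYP1A1 (adjusted p = 0.0036). AHRR and CYP1A1 had not passed in Saposhnikoviae Radix alone. HMOX1 gave -0.37 (adjusted p = 1.04e-04).

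Among genes that were lower, the difference was positive, meaning a smaller fall with Saposhnikoviae Radix. It was 1.08 for NR4A1, which had changes of -0.27 with Saposhnikoviae Radix and -1.36 with Menthae Herba (adjusted p = 4.60e-07). It was 0.65 for H19, 0.55 for IGFBP5, 0.49 for NPTX1, 0.45 for TGM2, 0.39 for DIO2 and 0.26 for SLC26A2. ZNF20 gave -4.96 (adjusted p = 0.0437), on 0 to 1 counts at 500 of Saposhnikoviae Radix and in a gene that ZNF625-ZNF20 overlaps.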

How the results depend on the processing

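No named gene changed direction past the threshold under any of the 23 alternatives run. CYP1B1, ID2, ID3 and DIO2 were called at 500 against 20 in all 23, and TIPARP in the 22 that gave it an adjusted p. Against 34 genes in the main test, 14 were called in the fit of 57 libraries, 12 of them shared, and 189 with no filter on low counts; DESeq2 called 48. Leaving out 1 of the 9 Saposhnikoviae Radix libraries, the only ones left out in turn, gave 5 to 38 genes called. BMP and SMAD1/5 targets called numbered 6 in the main test, 3 by DESeq2, which gave ATOH8, ID4 and STC1 no adjusted p, and 2 to 6 with 1 library left out. AhR targets called numbered 2 in the main test, 4 with no filter, 1 by DESeq2 and 2 in each fit with 1 library left out.

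At 100 against 20, where the main test called 0, the number called was 4 in the fit of the 9 Saposhnikoviae Radix libraries, 123 with no filter, 2 by DESeq2 and 0 to 2 with 1 library left out. At 500 against 100, where it called 1, the number was 2 in the fits of 57 and of 9 libraries, with RLE size factors and with mitochondrial genes removed, 4 with the vehicle libraries added, 3 with library totals alone, 209 with no filter, 5 at a mean of at least 50 counts, 52 by DESeq2, 10 with robust estimation and 1 to 6 with 1 library left out. The difference between the herbs was called for 119 genes in the main test, 34 in the fit of 57, 329 with no filter and 48 to 123 with 1 Saposhnikoviae Radix library left out. Fits without a single Menthae Herba library were not run. The cause of these shifts was not tested.

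Over all genes tested, libraries with the same replicate number did not deviate together (r of -0.008 to 0.002 between 500 and 20). In single genes such as ID1 and TGM2 replicate 1 was the lowest at each dose, and in others such as ID3 it was not. The correlation therefore does not settle whether the libraries are paired. With a replicate block 32 genes were called at 500 against 20, 4 at 500 against 100 and 132 for the difference. For named genes, 1623 values kept their side of the threshold, 198 lost the call and 16 gained it. VIPR1, CYP1A1, SMAD9 and ZNF20 rest on few counts.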

Other observations

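All 13 mitochondrially encoded genes had negative log2 changes at 500 against 20 of Saposhnikoviae Radix, from -0.17 for MT-ATP6 to -0.08 for MT-CO3, with a median of -0.11, and none passed (edgeR). With mitochondrially encoded genes removed before scaling, 36 genes were called at 500 against 20. Among 19 genes of the YAP and TEAD response, 15 had negative values and none passed, with a median of -0.02. Of all 16614 genes tested, 8349 had negative values. SNAI2, a transcription factor of the mesenchymal state, was at 0.777 CPM at 500 and 0.528 CPM at 20 and did not pass (adjusted p = 0.75).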
